A study of Mus musculus with 35 samples.

Results

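The diet comparison in wild-type aorta after 6 weeks was made between 3 libraries from mice fed a Western diet and 3 libraries from mice fed chow, 6 of the 35 libraries of the series. The libraries were chosen by their titles, and no measured value entered the choice. Total RNA of whole mouse aorta was sequenced. All animals of the 6 libraries were wild type (WT) on the C57BL/6 strain, were 8 weeks old when the diets began and were 14 weeks old at the end. They received the Western diet (WD, TD.88137, a purified diet rich in milk fat, sugar and cholesterol) or regular chow (4RF21). Per the labels, blood was flushed out with saline, the vessel was taken from the aortic root down to the iliac bifurcation, and the fat around it was removed. No transgene or deletion is named for these animals. The WT pair after 22 weeks (WD and chow, age 30 weeks) and the pair of apolipoprotein E knockout mice (EKO) after 6 weeks (WD and chow, age 14 weeks), with 3 libraries a group, were used to test whether the diet difference differed there.

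WT mice clear cholesterol-rich remnant lipoproteins with the help of apolipoprotein E and are largely resistant to atherosclerosis. The aortic wall consists of an endothelial lining, layers of smooth muscle and elastic fibres, and an outer adventitia with fibroblasts, leukocytes and nerves, and brown fat lies around its thoracic part. Cytosolic chaperones of the heat shock protein families fold and refold proteins, and many of their genes are driven by heat shock factor 1, which binds repeated copies of a short element. Brown adipocytes burn fatty acids in mitochondria uncoupled by Ucp1.

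Values are the normalised signal the authors deposited. Differences are on the log2(value + 1) scale as WD minus chow, with the standard error of 1 limma fit of all 35 libraries in 12 groups and p-values adjusted by Benjamini-Hochberg over the 14157 genes tested. The step between low values gave about 6840000 reads in WD replicate 1, the shallowest library of the series, and at most 13010000 reads in the other 5. Y-linked transcripts averaged 1.33 in WD replicate 1 and 0.0651 in chow replicate 1, against at least 46.4 in each of the other 4 libraries, so each diet group held 1 library nearly without them. Smooth muscle markers were present throughout: Myh11, the smooth muscle myosin, stood at 2109.6, 5750.2 and 4623 in the WD libraries, against 2723, 5212 and 7716 in the chow libraries. Brown fat transcripts were present in every library as well, although the fat had been removed: Ucp1 stood at 9750.3, 4360.04 and 5676 in the WD libraries, against 3096, 1925 and 939.7 in the chow libraries. Nerve markers were uneven, with mean log2 levels of 1.41, 2.14 and 1.01 in the WD libraries and of 1.19, 3.47 and 4.58 in the chow libraries. In tissue samples of this kind, more cells of a type and more RNA per cell cannot be told apart. The labels do not say more about how the animals of a group were related. The p-values reflect the scatter within groups over all 35 libraries of the fit, not over the 6 alone. Those include libraries of EKO/hA-I mice (EKO with human apoA-I), a genotype that entered through this spread only. One library of the 22-week WD group, replicate 3, is WT by its title and EKO by its genotype tag, and its Apoe signal of 540.4, beside 5.37 to 16.02 in the 6-week EKO libraries, stands with the other WT libraries.

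**Figure D1:**
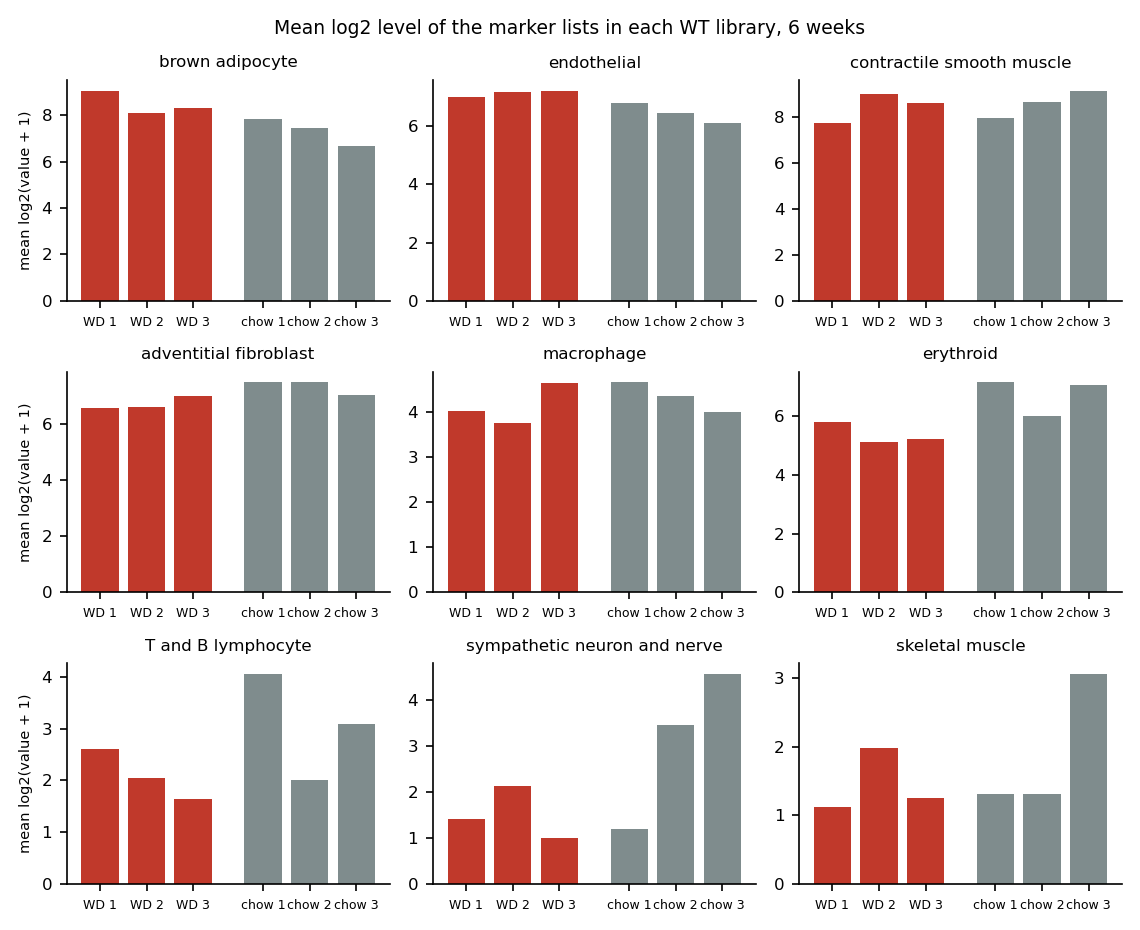
Mean log2(value + 1) of the measured members of 9 marker lists in each WD library (red, left) and chow library (grey, right), WT, 6 weeks, with bars for single libraries. The brown adipocyte and endothelial levels are higher in all 3 WD libraries than in any chow library, and the nerve level spans 1.19 to 4.58 within the chow group.

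At an adjusted p under 0.05, 118 genes were higher and 85 were lower on WD, together 203 genes or 1.43% of the genes tested. The smallest adjusted p was 0.0034, for Gng7, and 2421 genes had an unadjusted p under 0.05. The 3 WD and the 3 chow values did not overlap for 3331 genes (23.5%), with 1673 higher (11.8%) and 1658 lower (11.7%) on WD, and 201 of the 203 called genes were among them. The count of calls rested on single libraries: it was 10 without chow replicate 2, 16 without WD replicate 3, 21 without WD replicate 1, 24 without chow replicate 3, 119 without WD replicate 2 and 170 without chow replicate 1. Gng7, Angpt1, Ptpn13 and Ahsa1 were among the genes that kept the call in all 6 of these fits, and 51 of the 203 kept it in none. In a fit of the 6 libraries alone 3 genes passed, and of the 203 only Hist2h2aa2 and P4ha1 were among them. With a term for the level of brown fat markers 362 genes passed, 68 higher and 294 lower, and 56 of the 203 were among them.

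**Figure D2:**
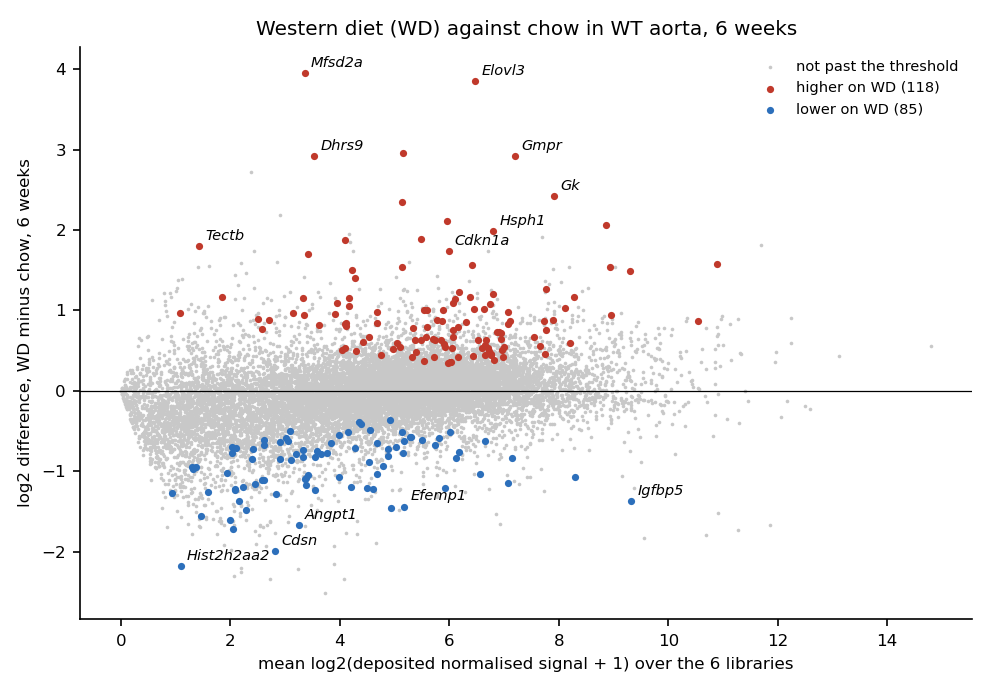
Log2 difference (WD minus chow, WT, 6 weeks) of each of 14157 genes against its mean log2(value + 1) over the 6 libraries. Red points are the 118 genes higher on WD and blue points the 85 genes lower on WD at an adjusted p under 0.05, with some of the named genes labelled.

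Heat shock chaperones, mostly cytosolic but with the mitochondrial Hspd1 and Hspe1 among them, were the list with the most calls. The lists and their members were chosen with earlier results of these data known, so the shares given here describe them and test nothing. Of 18 heat shock chaperone genes, all measured, 6 rose on WD and none fell, beside 0.834% of all genes higher and 0.6% lower. The groups did not overlap for 11 of the 18, all higher on WD, beside 11.8% of all genes. The list's median was 0.94, beside -0.03 over all genes. Ahsa1, a co-chaperone that stimulates the ATPase of Hsp90, had signals of 222, 139 and 151 in the WD libraries, against 67.6, 70.7 and 78.4 in the chow libraries. Each WD value was above each chow value, and Ahsa1 rose by 1.20 ± 0.19 (log2, SE; limma adjusted p = 0.00446). Hspa8, the constitutive Hsc70, had 4470.3, 2656 and 2917 in the WD libraries, against 926, 963 and 1452 in the chow libraries. It rose by 1.58 ± 0.34 (adjusted p = 0.0248), with WD replicate 1 the highest library. Both cytosolic Hsp90 genes also rose. The inducible Hsp90aa1 had 1350.3, 597 and 723 in the WD libraries, against 228, 272 and 375 in the chow libraries (1.54 ± 0.33, adjusted p = 0.0244), and the constitutive Hsp90ab1 had 2471, 1723 and 1943 in the WD libraries, against 1126, 1039.6 and 1168 in the chow libraries (0.87 ± 0.21, adjusted p = 0.0341). In both, WD replicate 1 was again the highest and the groups did not overlap.

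Hsph1 and Hspa4l, nucleotide exchange factors of the Hsp110 family that recharge Hsp70, were the other two calls. Hsph1 had 257, 177 and 239 in the WD libraries, against 33.6, 47.01 and 105 in the chow libraries (1.99 ± 0.51, adjusted p = 0.0472). Hspa4l had 113, 34.9 and 51.3 in the WD libraries, against 18.7, 20.6 and 19.5 in the chow libraries (1.54 ± 0.36, adjusted p = 0.0311). The Hsp40 protein Dnaja1 (1.33 ± 0.35, adjusted p = 0.0522) and the Hsp90-binding Chordc1 (1.12 ± 0.30, adjusted p = 0.058) lay just outside the threshold, with groups that did not overlap. The stress-inducible Hsp70 genes Hspa1a and Hspa1b, near-identical copies between which reads can be divided, had overlapping groups. Hspa1a had 24.3, 81.8 and 80.4 in the WD libraries, against 18.1, 37.4 and 249 in the chow libraries (-0.04 ± 0.87, adjusted p = 0.986), and Hspa1b had 37.3, 75.2 and 74.03 in the WD libraries, against 19.2, 23.4 and 217 in the chow libraries (0.34 ± 0.90, adjusted p = 0.873). Both were highest in chow replicate 3, as was Dnajb4, another Hsp40 (72.2, 167 and 148 in the WD libraries, against 59.2, 104 and 294 in the chow libraries). The mitochondrial chaperonin pair Hspd1 (0.97 ± 0.34, adjusted p = 0.146) and Hspe1 (0.91 ± 0.29, adjusted p = 0.103) did not pass.

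**Figure D3:**
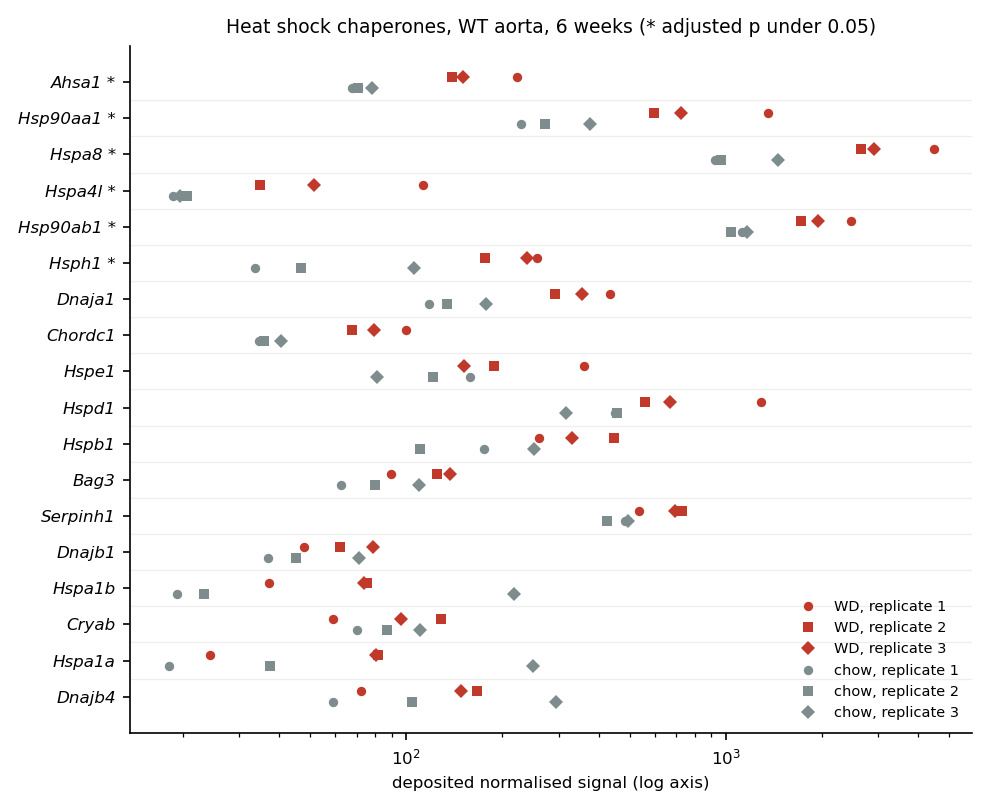
Deposited normalised signal (log axis) of the 18 heat shock chaperones in each WD library (red, above) and chow library (grey, below), with marker shapes for replicates and asterisks at the 6 genes that passed 0.05. The WD and chow values of Ahsa1 do not overlap, and chow replicate 3 is the highest library for Hspa1a, Hspa1b and Dnajb4.

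The calls of the chaperone list depended on single libraries. Without WD replicate 2 there were 5 and without chow replicate 3 there were 3, while without WD replicate 1, WD replicate 3, chow replicate 1 or chow replicate 2 there was 1, which was Ahsa1. With the brown fat term 1 member passed, again Ahsa1 (adjusted p = 0.00982), and the list's median was 0.84. In the fit of the 6 libraries alone no member passed, Ahsa1 included. Brown fat markers summed to between 7392 and 15269 in the WD libraries and to between 2472 and 6463 in the chow libraries. Further chaperones, chosen after their values were seen, passed as well. Stip1, the adaptor between Hsp70 and Hsp90, had 165, 147 and 155 in the WD libraries, against 61.2, 72.9 and 86.96 in the chow libraries (1.08 ± 0.23, adjusted p = 0.0234). Hspb8, a small heat shock protein, had 192, 185 and 186 in the WD libraries, against 64.4, 98.1 and 132 in the chow libraries (0.99 ± 0.20, adjusted p = 0.0196). Stip1 and Hspb8 each kept the call in 2 of the 6 fits that leave out a library. The 8 subunits of the chaperonin CCT, which folds actin and tubulin, were also a list picked after values were seen. All had positive differences, with a median of 0.35, and 1 passed, beside 0.834% of all genes higher. That subunit, Cct3, had 219, 144 and 176 in the WD libraries, against 97.6, 99.3 and 101 in the chow libraries (0.83 ± 0.14, adjusted p = 0.012), and it lost the call without WD replicate 1 and kept it in the other 5 such fits.

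The promoters of the chaperones were read because heat shock factor 1 is the textbook regulator of this family, a search chosen after the values were seen. RefSeq windows (GRCm38, 250 bases before to 50 after a start site) were found for 14 of the 18 genes, 20 windows in all, and not for Hspa8, Hsp90aa1, Hsp90ab1 and Cryab. Of the 6 called genes, 3 thus had a window (Hsph1, Hspa4l and Ahsa1). A heat shock element of 3 units, GAANNTTCNNGAA or TTCNNGAANNTTC on either strand, stood in 5 of the 20 windows (25%), those of 4 genes (Hsph1, Hspd1, Hspe1 and Chordc1), and in 0.603% of all 32851 windows. Both Hsph1 windows overlap, as do those of Hspd1 and Hspe1. The 2-unit form, GAANNTTC or TTCNNGAA, which every 3-unit match contains, stood in 11 of the 20 windows (55%), those of 10 genes, and in 15.1% of all windows. Of the 3 called genes with a window, only Hsph1 had either form, and Hspa4l and Ahsa1 had neither. The printed windows are Hsph1 at chr5:149636287-149636586 (minus strand), the 1 called member with a match, Chordc1 at chr9:18292017-18292316 (plus strand), with overlapping matches, and Ahsa1 at chr12:87266478-87266777 (plus strand), the member with the smallest p, whose window holds neither form. Each runs 5′ to 3′ on the gene's strand, and capitals mark the 3-unit element.
Hsph1: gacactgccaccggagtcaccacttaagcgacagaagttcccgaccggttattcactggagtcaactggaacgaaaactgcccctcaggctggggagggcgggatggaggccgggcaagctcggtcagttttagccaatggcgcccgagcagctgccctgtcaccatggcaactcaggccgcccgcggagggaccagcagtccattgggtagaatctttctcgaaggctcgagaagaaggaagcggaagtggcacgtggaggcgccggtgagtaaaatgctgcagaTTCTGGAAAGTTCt
Chordc1: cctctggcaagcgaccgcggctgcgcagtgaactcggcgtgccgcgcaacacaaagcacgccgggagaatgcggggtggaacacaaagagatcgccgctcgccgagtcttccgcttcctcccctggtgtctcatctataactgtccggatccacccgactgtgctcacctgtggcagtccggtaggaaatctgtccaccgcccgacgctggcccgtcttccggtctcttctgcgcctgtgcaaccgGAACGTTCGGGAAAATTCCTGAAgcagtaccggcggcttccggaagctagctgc
Ahsa1: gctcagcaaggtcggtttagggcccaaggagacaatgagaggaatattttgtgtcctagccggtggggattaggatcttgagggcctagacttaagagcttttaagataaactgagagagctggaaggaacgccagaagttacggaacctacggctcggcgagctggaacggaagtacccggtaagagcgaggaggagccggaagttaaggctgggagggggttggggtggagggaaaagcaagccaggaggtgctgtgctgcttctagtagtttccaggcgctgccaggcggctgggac
The start site follows the first 250 bases of each window. The Hsph1 match began at base 287, past the start site, and the first Chordc1 match at base 247, just before it. A match describes the letters of a window and says nothing of binding in these aortas.

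The largest rises included genes of fatty acid and glycerol handling that brown fat uses. Elovl3, a fatty acid elongase typical of active brown fat, had 492, 251 and 309 in the WD libraries, against 45.6, 31.7 and 7.36 in the chow libraries. It rose by 3.85 ± 0.73 (adjusted p = 0.0149), kept the call without WD replicate 2 and without chow replicate 1, and lost it without each of the other 4 libraries. With the brown fat term, built from a list that holds Elovl3 itself, its adjusted p was 0.0151. Mfsd2a, a carrier of lysophosphatidylcholine, had 59.9, 29.3 and 34.5 in the WD libraries, against 3.60, 0.455 and 1.64 in the chow libraries (3.95 ± 0.92, adjusted p = 0.0303). Gk, glycerol kinase, had 1119.9, 327 and 469.9 in the WD libraries, against 163, 114 and 59.1 in the chow libraries (2.42 ± 0.53, adjusted p = 0.0269). For these 3 genes the groups did not overlap, WD replicate 1 was the highest library, and chow replicate 1 was the highest of the chow libraries. Gk kept the call in 2 of the 6 fits that leave out a library, and Mfsd2a in 1.

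A further 5 rises had the same highest library in each group. Gmpr, a GMP reductase, had 1012, 201 and 316 in the WD libraries, against 103, 39.7 and 34.6 in the chow libraries. Dhrs9, a short-chain dehydrogenase, had 72.1, 11.9 and 33.1 in the WD libraries, against 7.79, 4.02 and 0.669 in the chow libraries. Ffar4, a receptor for long-chain fatty acids, had 111, 55.2 and 79.7 in the WD libraries, against 35.4, 11.9 and 7.13 in the chow libraries. The other two were Adam12, a metalloprotease, and Tectb, a tectorin. Adam12 had 215, 75.95 and 132 in the WD libraries, against 40.4, 36.5 and 16.4 in the chow libraries, and Tectb had 10.01, 1.66 and 3.36 in the WD libraries, against 1.03, 0.303 and 0.149 in the chow libraries. The log2 differences were 2.92 for Gmpr, 2.92 for Dhrs9, 2.35 for Ffar4, 2.12 for Adam12 and 1.80 for Tectb, with adjusted p between 0.0234 and 0.0436. Perm1, a muscle regulator of mitochondrial genes, also rose, with 116, 61.3 and 84.6 in the WD libraries, against 14.9, 26.5 and 27.5 in the chow libraries (1.88 ± 0.43, adjusted p = 0.029), as did Vwa3a, with 38.8, 33.8 and 24.5 in the WD libraries, against 12.7, 6.67 and 5.80 in the chow libraries (1.88 ± 0.38, adjusted p = 0.0209). With the brown fat term none of Mfsd2a, Gk, Gmpr, Dhrs9, Ffar4, Adam12, Tectb, Perm1 and Vwa3a passed, with adjusted p between 0.0881 for Vwa3a and 0.291 for Ffar4.

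Of 11 brown adipocyte markers measured, 1 rose on WD (Elovl3), 5 had groups apart with WD higher, and the median was 0.89. Over all genes, 0.834% rose and 11.8% were apart with WD higher. Ucp1 differed by 1.81 ± 0.54, adjusted p = 0.0772, and Dio2, the deiodinase that activates thyroid hormone in brown fat, by 1.91 ± 0.54, adjusted p = 0.0666. Cidea, a lipid droplet protein abundant in brown fat, had 1705, 1311 and 1370.1 in the WD libraries, against 1796, 1280.3 and 813 in the chow libraries, and the groups overlapped. The mean log2 level of the list was 9.06, 8.07 and 8.32 in the WD libraries and 7.84, 7.43 and 6.67 in the chow libraries, without overlap. None of 24 fatty acid oxidation genes passed, 13 were apart with WD higher, and the median was 0.75. None of 27 respiratory chain genes passed, and all 27 differences were positive with a median of 0.40. Of 14 general adipocyte genes none passed (median 0.27). With the brown fat term the medians of all 4 lists were negative: -0.27 for brown adipocyte markers, from which the term was built, -0.45 for fatty acid oxidation, -0.52 for the respiratory chain and -0.69 for general adipocyte genes. In that fit Ndufs3, Sdhb, Cox7b, Atp5c1 and Atp5o of the respiratory chain, the oxidation enzyme Acadl, the adipocyte genes Adipoq and Plin1, and Cidea passed as lower on WD. Lep, leptin, had 2.12, 13.3 and 8.41 in the WD libraries, against 15.4, 38.8 and 82.6 in the chow libraries (-2.34 ± 0.63, adjusted p = 0.0559), so the groups were apart with WD lower.

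Endothelial genes had a positive difference throughout. Of 14 endothelial markers, all measured, 3 rose on WD and none fell, the median was 0.69, and 12 had groups apart with WD higher. Over all genes, 0.834% rose and 11.8% were apart with WD higher. Eng, the endoglin co-receptor for TGF-beta family ligands, had 355, 414 and 415 in the WD libraries, against 282, 178 and 141 in the chow libraries (1.03 ± 0.21, adjusted p = 0.0209). Icam2, an adhesion molecule of endothelium, had 29.3, 31.9 and 39.1 in the WD libraries, against 25.3, 14.6 and 15.8 in the chow libraries (0.85 ± 0.21, adjusted p = 0.0374), and Esam, a junction protein, had 99.7, 129.8 and 113 in the WD libraries, against 82.2, 69.5 and 67.6 in the chow libraries (0.63 ± 0.16, adjusted p = 0.0376). In all 3, chow replicate 1 was the closest of the chow libraries to the WD libraries. Pecam1, the CD31 antigen, had 415, 484 and 566 in the WD libraries, against 316, 282 and 265 in the chow libraries (0.75 ± 0.23, adjusted p = 0.0851). The values of Vwf, von Willebrand factor, overlapped, with 119.9, 163 and 235 in the WD libraries, against 151, 152 and 128 in the chow libraries. Without chow replicate 1 there were 3 calls in the list, without WD replicate 2 there was 1, which was Eng, and without each of the other 4 libraries none passed. With the brown fat term Icam2, Pecam1 and Nos3, the endothelial nitric oxide synthase, passed (adjusted p = 0.0341, 0.0269 and 0.0461), and Eng did not (adjusted p = 0.0727). With terms for brown fat, skeletal muscle, nerve and cardiac muscle markers together none of the 14 passed, and the median was 0.56. In the fit of the 6 libraries alone none passed either.

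Angpt1, the angiopoietin that activates the endothelial receptor Tie2, fell. It had 3.19, 5.64 and 4.49 in the WD libraries, against 14.3, 21.7 and 13.2 in the chow libraries (-1.67 ± 0.26, adjusted p = 0.00446), and it kept the call in all 6 fits that leave out a library and with the brown fat term (adjusted p = 0.00224). Tek, the gene of Tie2, had 106, 89.1 and 95.8 in the WD libraries, against 88.5, 75.7 and 53.96 in the chow libraries (0.43 ± 0.23, adjusted p = 0.349), and did not pass.

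Among genes of lipid storage 1 call was made and among lysosome genes 2. Plin2, a coat protein of lipid droplets, had 1008, 921 and 1288 in the WD libraries, against 421, 420.3 and 305 in the chow libraries (1.49 ± 0.36, adjusted p = 0.0372), and lost the call in all 6 fits that leave out a library. It was the 1 call among 14 lipid-loaded macrophage genes, whose median was 0.78, beside 0.834% of all genes higher on WD. Abcg1, a sterol exporter and target of the oxysterol receptor LXR, had 29.6, 26.5 and 37.1 in the WD libraries, against 15.5, 10.01 and 11.6 in the chow libraries (1.27 ± 0.34, adjusted p = 0.0566). Of 18 macrophage markers none passed, 14 differences were negative and the median was -0.21. The list's signals summed to between 384 and 786 in the WD libraries and to between 472 and 785 in the chow libraries, so the groups overlapped. A pair of macrophage genes chosen after their values were seen were highest in WD replicate 3. Cd5l had 1.21, 1.33 and 47.7 in the WD libraries, against 2.48, 2.05 and 1.19 in the chow libraries, and Mmp12, the macrophage elastase, had 5.61, 1.83 and 25.5 in the WD libraries, against 2.65, 1.44 and 1.04 in the chow libraries.

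Of 35 lysosome genes 2 rose and none fell, with a median of 0.12, beside 0.834% of all genes higher and 0.6% lower. Ctsz, cathepsin Z, had 629.5, 366 and 437 in the WD libraries, against 260.5, 199.6 and 169 in the chow libraries (1.17 ± 0.21, adjusted p = 0.0145), and kept the call without WD replicate 2, WD replicate 3 or chow replicate 1 but not without the other 3 libraries. Scarb2, the membrane protein that carries glucocerebrosidase to lysosomes, had 409.7, 339 and 334 in the WD libraries, against 229, 241 and 244 in the chow libraries (0.59 ± 0.14, adjusted p = 0.0342), and kept it in 0 of the 6. Apoe, the apolipoprotein that EKO mice lack, had 815, 438 and 416 in the WD libraries, against 1276, 1057 and 694 in the chow libraries (-0.88 ± 0.31, adjusted p = 0.139), with overlapping groups. None of 22 sterol synthesis genes passed, with 19 positive and 3 negative differences. Their median was 0.48, and 0.12 with the brown fat term. Of these genes 11 had groups apart with WD higher and 2 with WD lower, beside 11.8% and 11.7% of all genes. Cyp51, lanosterol demethylase, had 79.9, 50.1 and 45.3 in the WD libraries, against 22.02, 21.5 and 37.6 in the chow libraries (1.09 ± 0.35, adjusted p = 0.11). Fdft1, squalene synthase, had 45.4, 50.98 and 45.9 in the WD libraries, against 95.1, 100.04 and 90.3 in the chow libraries (-0.99 ± 0.30, adjusted p = 0.0875), the opposite sign in the same pathway. None of 20 sphingolipid synthesis genes passed, with a median of -0.07, and of 0.03 with the brown fat term.

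Among genes of stress and hormone response, Cdkn1a, the cyclin-dependent kinase inhibitor p21, had 127, 121 and 98.02 in the WD libraries, against 45.5, 28.97 and 29.1 in the chow libraries (1.73 ± 0.33, adjusted p = 0.0149). It kept the call without WD replicate 2, WD replicate 3 or chow replicate 1 but not without the other 3 libraries. It was the 1 call among 14 glucocorticoid response genes, whose median was 0.39, and Sgk1, a kinase induced by the hormone, had 194, 249.96 and 217 in the WD libraries, against 120.1, 86.6 and 114 in the chow libraries (1.04 ± 0.32, adjusted p = 0.0906). Txnrd1, thioredoxin reductase, was the 1 call among 18 antioxidant genes, with 148, 99.7 and 136 in the WD libraries, against 80.6, 80.2 and 81.5 in the chow libraries (0.64 ± 0.14, adjusted p = 0.029), and the median of that list was 0.08. Manf, a secreted factor of the endoplasmic reticulum, was the 1 call among 18 endoplasmic reticulum stress genes, with 67.8, 62.8 and 62.6 in the WD libraries, against 40.7, 42.5 and 39.02 in the chow libraries (0.65 ± 0.17, adjusted p = 0.0462). There 8 of the 18 had groups apart, all higher on WD, beside 11.8% of all genes. Beside the single calls of the glucocorticoid, antioxidant and endoplasmic reticulum lists, 0.834% of all genes rose on WD. Hspa5, the chaperone BiP, had 613, 505 and 529 in the WD libraries, against 383, 386 and 377 in the chow libraries (0.52 ± 0.18, adjusted p = 0.14). Txnrd1 kept the call in 1 of the 6 fits that leave out a library, the one without WD replicate 2, and Manf in 0.

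P4ha1, a prolyl hydroxylase of collagen that also passed in the fit of the 6 libraries alone, had 167, 122 and 151 in the WD libraries, against 49.5, 47.8 and 47.6 in the chow libraries (1.57 ± 0.28, adjusted p = 0.0142). Egln1 and Egln3, the oxygen-sensing prolyl hydroxylases of HIF factors, rose as well (1.27 ± 0.29, adjusted p = 0.0298 for Egln1, and 1.41 ± 0.32, adjusted p = 0.0291 for Egln3). These 3 genes were chosen after their values were seen. P4ha1 kept the call in 3 of the 6 fits that leave out a library, Egln3 in 2 and Egln1 in 0.

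The named genes that fell included secreted factors and several genes at low levels. Igfbp5, a binding protein of insulin-like growth factors, had 396, 373 and 420.4 in the WD libraries, against 1071, 1254 and 813 in the chow libraries (-1.38 ± 0.32, adjusted p = 0.029). Its relative Igfbp4, chosen after its values were seen, had 174, 245 and 234 in the WD libraries, against 487, 508 and 381 in the chow libraries (-1.08 ± 0.27, adjusted p = 0.0374). Efemp1, the matrix protein fibulin-3, had 29.4, 17.2 and 17.9 in the WD libraries, against 71.6, 64.1 and 43.3 in the chow libraries (-1.44 ± 0.30, adjusted p = 0.0233). In these 3 genes each WD value was below each chow value. Gdf5, a growth factor of the TGF-beta family, had 2.58, 1.66 and 1.21 in the WD libraries, against 7.19, 7.20 and 4.38 in the chow libraries (-1.37 ± 0.32, adjusted p = 0.0326), and Inhbb, an activin subunit of the same family, had 2.43, 5.31 and 3.46 in the WD libraries, against 7.96, 10.2 and 12.8 in the chow libraries (-1.28 ± 0.32, adjusted p = 0.0374). Glb1l2, a relative of beta-galactosidase, had 13.4, 21.7 and 18.1 in the WD libraries, against 34.3, 74.99 and 47.9 in the chow libraries (-1.46 ± 0.28, adjusted p = 0.0159). Efemp1, Inhbb and Glb1l2 each kept the call in 2 of the 6 fits that leave out a library, and Igfbp5, Igfbp4 and Gdf5 in none.

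A further 5 named falls were at low levels. Cdsn, which encodes corneodesmosin, had 2.12, 2.66 and 2.80 in the WD libraries, against 10.96, 11.9 and 16.6 in the chow libraries. Apol11b, an apolipoprotein L gene, had 1.65, 1.26 and 0.975 in the WD libraries, against 7.78, 3.51 and 9.57 in the chow libraries, and Cacna2d3, a calcium channel subunit, had 1.06, 1.91 and 0.934 in the WD libraries, against 3.34, 6.52 and 9.14 in the chow libraries. Their groups were apart, as were those of the other two. Trim10, a gene of erythroid cells, had 0.607, 0.664 and 0.561 in the WD libraries, against 6.68, 1.36 and 4.83 in the chow libraries, and Opcml, a neural adhesion molecule, had 2.43, 1.83 and 1.59 in the WD libraries, against 9.76, 6.45 and 5.80 in the chow libraries. The differences of these 5 lay between -1.48 for Opcml and -1.99 for Cdsn, with adjusted p between 0.0286 and 0.0462. Cacna2d3 kept the call in 2 of the 6 fits that leave out a library, Cdsn and Trim10 in 1, and Apol11b and Opcml in 0. Hist2h2aa2, a histone H2A gene, was listed at 0 in all 3 WD libraries, against 3.49, 4.14 and 3.05 in the chow libraries (adjusted p = 0.0234). It was also listed at 0 in all 3 WT chow libraries at 22 weeks, and near-identical histone copies can divide its reads, so the value is uncertain. Gng7 and Ptpn13 were singled out because no left-out library ended their call. Gng7, a G protein gamma subunit, had 5.31, 6.14 and 7.01 in the WD libraries, against 14.2, 14.7 and 13.5 in the chow libraries (-1.09 ± 0.16, adjusted p = 0.0034). Ptpn13, a protein tyrosine phosphatase, had 7.89, 6.81 and 8.78 in the WD libraries, against 15.4, 14.5 and 13.97 in the chow libraries (-0.83 ± 0.14, adjusted p = 0.012). Neither gene passed in the limma fit of the 6 libraries alone (adjusted p = 0.0916 for Gng7 and 0.117 for Ptpn13).

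Marker lists of adventitial fibroblasts, red cells and lymphocytes had negative medians and no call, and the complement list had 1. None of 12 adventitial fibroblast genes passed, 7 had groups apart with WD lower, and the median was -0.67. Over all genes, 0.6% fell and 11.7% were apart with WD lower. Cd248, a stromal surface protein, had 29.6, 35.5 and 47.6 in the WD libraries, against 93.2, 81.5 and 60.9 in the chow libraries (-1.05 ± 0.29, adjusted p = 0.0605). Of 17 complement genes 1 fell and 8 had groups apart with WD lower, with a median of -0.41. The call was C2, a component of the classical pathway convertase, with 15.02, 11.2 and 15.9 in the WD libraries, against 38.4, 37.2 and 25.9 in the chow libraries (-1.20 ± 0.31, adjusted p = 0.0493), and it was lost in all 6 fits that leave out a library. Erythroid genes had a median of -1.69 over 8, with 6 apart and none called. Alas2, the first enzyme of haem synthesis in red cell precursors, had 91.5, 54.8 and 61.95 in the WD libraries, against 291, 116 and 293 in the chow libraries (-1.65 ± 0.56, adjusted p = 0.13). Blood had been flushed out of the vessels, and the part of residual blood in the lower genes was not tested. Of 13 lymphocyte genes none passed and 6 were apart with WD lower (median -0.94).

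**Figure D4:**
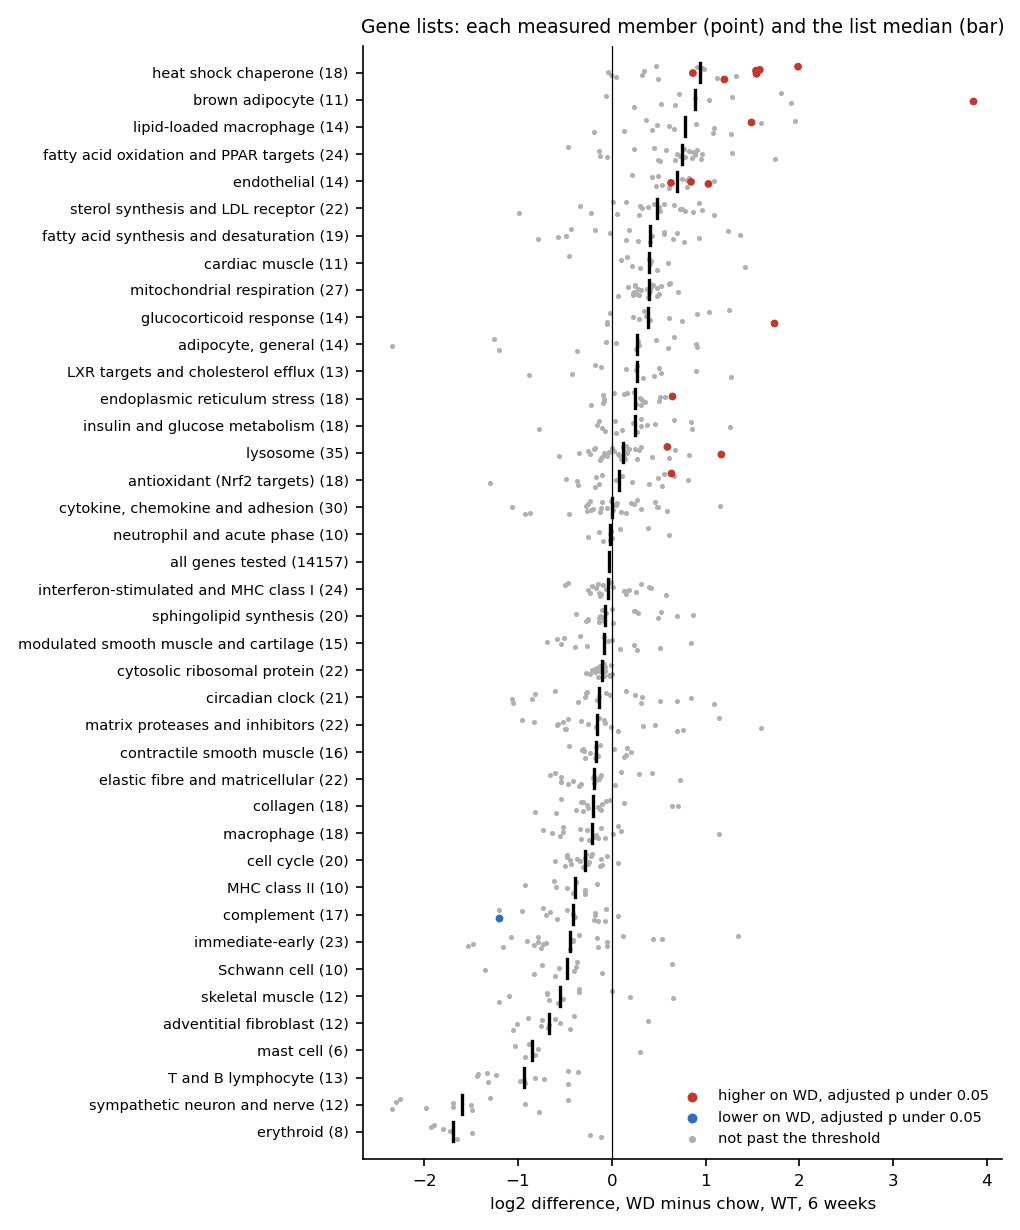
Log2 difference (WD minus chow, WT, 6 weeks) of each measured member of the gene lists (points), with red for members higher and blue for members lower at an adjusted p under 0.05 and a bar at each list's median. Heat shock chaperones have a median of 0.94 and erythroid genes one of -1.69, and the bar of all 14157 genes is at -0.03.

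Contractile smooth muscle genes overlapped between diets in all 16, with none passing and a median of -0.17, and none of 18 collagen genes passed (median -0.20). Both medians turned positive with the brown fat term (0.82 for contractile and 0.46 for collagen genes) and with terms for brown fat, skeletal muscle, nerve and cardiac muscle markers together (0.80 and 0.48), where Col4a1, a basement membrane collagen, passed as higher. None of 21 circadian clock genes passed (median -0.14), nor any of 23 immediate-early genes (median -0.45), 10 MHC class II genes (median -0.40), 30 cytokine, chemokine and adhesion genes (median 0.00), 24 interferon and MHC class I genes (median -0.04) or 20 cell cycle genes (median -0.28). Bhlhe41, a clock repressor, had 18.3, 41.03 and 37.9 in the WD libraries, against 52.5, 68.8 and 75.4 in the chow libraries (-1.06 ± 0.47, adjusted p = 0.248), and Egr1, an immediate-early transcription factor, had 35.7, 72.1 and 117 in the WD libraries, against 193, 308 and 127 in the chow libraries (-1.53 ± 0.55, adjusted p = 0.151). With the 4 tissue terms the median of immediate-early genes was 0.04. That of cytokine, chemokine and adhesion genes was -0.01, little different from the main fit. Other medians that changed sign with these terms included elastic fibre and matricellular genes (-0.19 to 0.52) and modulated smooth muscle and cartilage genes (-0.08 to 0.34). With 3 libraries a group, a missed threshold does not show that genes were alike on both diets.

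The diet difference after 6 weeks was compared with that after 22 weeks in WT by a contrast of both differences in the same fit. It passed for 1389 genes (9.81%), 693 with the 6-week difference above (4.9%) and 696 with it below (4.92%) the 22-week one. It passed for 328 in a fit of the 4 compared groups (130 above, 198 below) and for 475 with the 4 tissue terms (165 above, 310 below). The count was 774 without WD 6 weeks replicate 1, 913 without chow 6 weeks replicate 3, 925 without WD 22 weeks replicate 1 and 751 without WD 22 weeks replicate 2, and it was 1524 without WD 22 weeks replicate 3, the library with conflicting labels. At 22 weeks itself 193 genes passed (1.36%), 131 higher (0.925%) and 62 lower (0.438%) on WD. The 31 genes called at both durations, 15.3% of the 203 and 16.1% of the 193, all had opposite signs. Over all genes the sign was opposite in 68.5%, and over the 203 in 93.6%. Cdkn1a was among the 31, with 34.6, 28.7 and 43.6 in the WD libraries, against 75.4, 101 and 116 in the chow libraries at 22 weeks (-1.43 ± 0.33, adjusted p = 0.0287), and its 6-week difference minus the 22-week one was 3.16 ± 0.47, adjusted p = 0.000448. Igfbp5 was another, with 1181, 1143 and 1077 in the WD libraries, against 883, 272 and 294 in the chow libraries at 22 weeks (1.45 ± 0.32, adjusted p = 0.0186), and so was Gng7, with 12.8, 11.8 and 13.9 in the WD libraries, against 6.55, 7.96 and 8.09 in the chow libraries at 22 weeks (0.70 ± 0.16, adjusted p = 0.025). In each of the 3 genes the 6-week and the 22-week differences had opposite signs and both passed.

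Among the lists, 9 of 18 heat shock chaperones passed the contrast with a 6-week difference above the 22-week one, and none passed with it below. Over all genes, 4.9% passed above and 4.92% below. Hspa8 differed by 1.58 after 6 weeks and -0.78 after 22 weeks (adjusted p of the contrast = 0.00343), and Ahsa1 by 1.20 and -0.40 (adjusted p = 0.000895). The list's medians were 0.94 after 6 weeks and -0.39 after 22 weeks. Passing with it above were also 7 of 14 endothelial genes (medians 0.69 and -0.35) and 5 of 11 brown adipocyte genes (medians 0.89 and -0.54). Passing with it below were 9 of 12 adventitial fibroblast genes (medians -0.67 and 1.14), 5 of 17 complement genes (medians -0.41 and 0.74) and 5 of 8 erythroid genes (medians -1.69 and 1.67). So were 4 of 6 mast cell genes (medians -0.85 and 1.65) and 3 of 18 macrophage genes (medians -0.21 and 0.79). Other lists with calls are not given here.

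The named genes with the 6-week difference above were Mfsd2a (5.98 ± 1.30, adjusted p = 0.00554), Mb, the oxygen-binding myoglobin of muscle (5.12 ± 1.63, adjusted p = 0.0452), Elovl3 (4.65 ± 1.04, adjusted p = 0.00655), Gmpr (4.64 ± 1.02, adjusted p = 0.00574) and Dio2 (4.41 ± 0.76, adjusted p = 0.00129). Those with it below were Lep (-5.51 ± 0.89, adjusted p = 0.000722), Igkc, an antibody light chain (-4.59 ± 1.32, adjusted p = 0.0286), Scgb1a1, a secretoglobin of airway cells (-4.19 ± 1.05, adjusted p = 0.0128), Hbb-bt, a globin (-3.88 ± 0.82, adjusted p = 0.00458), and Alas2 (-3.77 ± 0.80, adjusted p = 0.00458). At 22 weeks Mb had 27.7, 11.8 and 10.2 in the WD libraries, against 846, 46.9 and 44.02 in the chow libraries, and the chow replicate 1 library also had the highest cardiac muscle level of the 12 WT libraries. Lep had 86.8, 63.2 and 59.4 in the WD libraries, against 5.26, 13.5 and 4.11 in the chow libraries at 22 weeks. The mean log2 level of brown adipocyte markers at 22 weeks was 7.42, 6.72 and 7.47 in the WD libraries and 7.45, 8.70 and 7.83 in the chow libraries, and with the brown fat term 1404 genes passed the contrast, 504 above and 900 below.

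**Figure D5:**
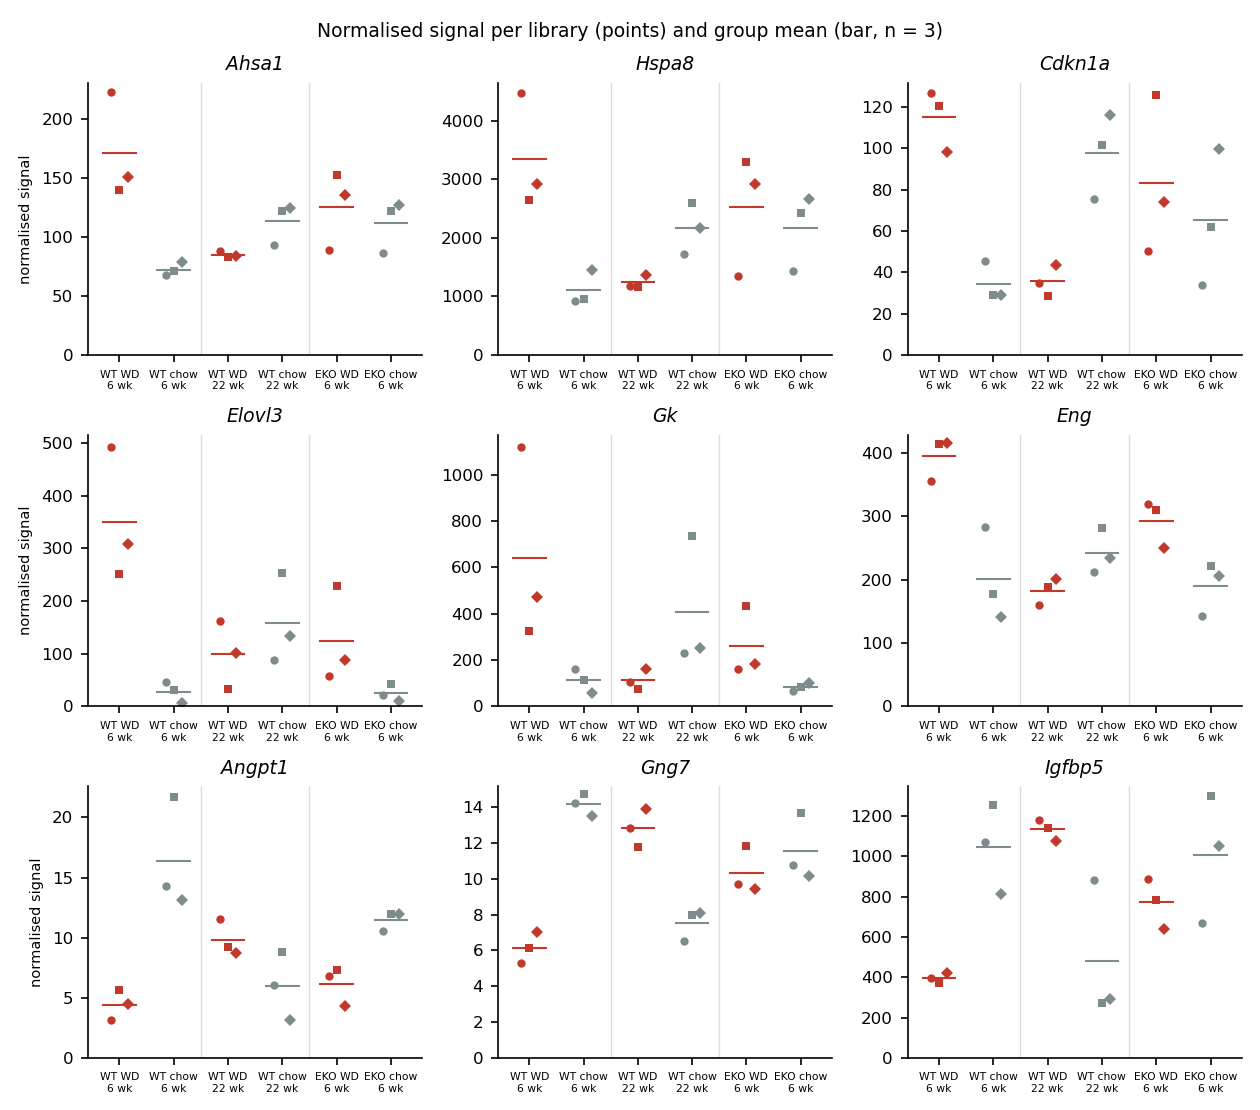
Deposited normalised signal of 9 genes in each library (points) and the group mean (bar, n = 3), with WD in red left of chow in grey, for WT at 6 weeks, WT at 22 weeks and EKO at 6 weeks. WD lies above chow for Cdkn1a in WT at 6 weeks and below it at 22 weeks, and the order is the reverse for Gng7 and Igfbp5.

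Between genotypes no gene passed. The 6-week diet difference in WT minus that in EKO had 0 calls by limma (0%, smallest adjusted p 0.148), with 1529 genes at an unadjusted p under 0.05. In EKO itself 12 genes passed (0.0848%), 9 higher (0.0636%) and 3 lower (0.0212%) on WD, and 3 of the 12 were among the 203. Library weights gave 2570 calls between genotypes, the brown fat term 5, and leaving out EKO chow 6 weeks replicate 2 gave 1. Of the 203 genes called in WT, 173 had the same sign in EKO, and the sign was opposite in 14.8% of them and in 37.7% of all genes. Elovl3 had 57.7, 229 and 88.2 in the WD libraries, against 22.4, 42.1 and 10.3 in the chow libraries in EKO (2.24 ± 0.73, adjusted p = 0.103), and its difference between genotypes was 1.61 ± 1.04, adjusted p = 0.594. Plin2 differed by 1.49 in WT and 1.28 in EKO, and Ctsz by 1.17 in WT and 1.16 in EKO.

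The 18 chaperones had a median difference of 0.94 in WT and of -0.15 in EKO, and no member differed between genotypes past the threshold. Hsph1 had 61.8, 299.8 and 265 in the WD libraries, against 85.2, 264 and 393 in the chow libraries in EKO (-0.28 ± 0.51, adjusted p = 0.793), and the difference between genotypes was 2.27 ± 0.73, adjusted p = 0.321. Hspa8 differed by 1.58 in WT and 0.16 in EKO (1.42 ± 0.48, adjusted p = 0.335 between genotypes). Of the genes named for the smallest p between genotypes, Senp6, Tyw5, Ppid, Krit1 and Myef2 had the WT difference above, and Selenbp1, Pwwp2b, Hist2h2aa2, Gng7 and Fgf18 had it below, none of them past the threshold. Selenbp1, a selenium-binding protein, had 49.3, 52.9 and 51.5 in the WD libraries, against 107, 95.6 and 76.9 in the chow libraries in WT (-0.84 ± 0.15, adjusted p = 0.0142). In EKO it had 76.4, 75.6 and 62.2 in the WD libraries, against 63.5, 56.2 and 59.4 in the chow libraries (0.25 ± 0.15, adjusted p = 0.362), and the difference between genotypes was -1.09 ± 0.22, adjusted p = 0.148.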

How the data were processed

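The authors deposited 1 table of normalised signal per gene and library, with gene symbols as identifiers. Per the submitters' processing notes, Bowtie 0.12.2, Bowtie2, RSEM, mm8 and mm9 were used, and the kind of normalisation is not given in the sources used here. Low values were whole multiples of a library's step for 77.1 to 81.9% of values in the 6 libraries (tolerance 0.02), so counts could not be recovered and no count test was run. Libraries were grouped by title. Of 14174 genes, 14157 reached 1 in 3 or more libraries and were tested. The values were transformed as log2(value + 1) and fitted with limma 3.58.1 in R 4.3.3 (trend and robust options, 12 groups, two-sided), with Benjamini-Hochberg adjustment and a threshold of 0.05. The script was tested on simulated data. The members and lists were chosen with earlier results of these data known.

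Named genes were up to 12 in each direction by size of difference among genes that passed, with groups apart and a mean level of 1 or more on that scale, up to 4 per list by smallest p, and up to 5 in each direction per contrast. Other genes, among them further list members given for context, were chosen after their values were seen. Alternatives were the fit of the compared groups, a replicate block, pseudocounts of 0.1 and 5, other filters, rescaling, other spread models, library weights, tissue terms, a Y-linked term and each library left out. The 4 tissue terms together, the libraries with Y-linked transcripts alone, the CCT list and the promoter search were added after seeing the data.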

Additional observations from a re-analysis of the deposited data

Results flagged for a closer look

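The diet difference in WT at 6 weeks differed from that at 22 weeks by the test of the contrast for 1389 genes, and 31 named genes are given as the 6-week difference minus the 22-week difference (log2). Among genes that rose at 6 weeks, the contrast was 5.98 for Mfsd2a, 4.65 for Elovl3, 4.64 for Gmpr, 4.08 for Gk, 3.77 for Ffar4, 3.75 for Dhrs9, 3.30 for Adam12, 3.16 for Cdkn1a, 3.08 for Vwa3a, 3.00 for Perm1, 2.66 for Hsph1 and 2.48 for Tectb. Among genes that fell at 6 weeks, it was -3.65 for Apol11b, -3.28 for Cdsn, -3.11 for Hist2h2aa2, -2.83 for Igfbp5, -2.78 for Opcml, -2.72 for Trim10, -2.37 for Efemp1, -2.37 for Angpt1, -2.35 for Gdf5, -2.30 for Cacna2d3, -1.91 for Glb1l2 and -1.88 for Inhbb. Genes named for the contrast alone had 5.12 for Mb, 4.41 for Dio2, -5.51 for Lep, -4.59 for Igkc, -4.19 for Scgb1a1, -3.88 for Hbb-bt and -3.77 for Alas2.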

How the results depend on the processing

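For WD against chow in WT at 6 weeks, where 203 genes passed, 3 passed in the fit of the 6 libraries alone, 4688 with library weights, 362 with the brown fat term, 361 with brown fat and skeletal muscle terms and 50 in libraries with Y-linked transcripts alone. Leaving out 1 library gave 10 to 170. The share of higher genes was 58.1% in the main result and 18.8% with the brown fat term. No called gene changed sign under any of the 21 alternatives, but many of these could not change a sign. The groups of 201 of the 203 genes did not overlap, so leaving out a library could not turn their difference. The fit of the compared groups, other filters and other spread models leave the difference itself as it was. The contrast of durations, with 1389 genes, had 328 in the fit of the compared groups, 4137 with library weights, 475 with 4 tissue terms, 675 in libraries with Y-linked transcripts alone and 751 to 1531 with 1 library left out. The contrast of genotypes, with 0 genes, had 2570 with library weights, 5 with the brown fat term, 3 with brown fat and skeletal muscle terms and 0 to 1 with 1 library left out. The causes were not tested.

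With the replicate block, 191 genes passed at 6 weeks in the compared groups (59 of the 203 among them) and 243 in all groups, while the contrast of durations had 236 in the compared groups (73 above, 163 below). The deviations of same-numbered libraries from their group means correlated at 0.47, -0.05 and 0.17 for WD and chow at 6 weeks, where WD replicate 2 correlated best with chow replicate 3 (0.49). They correlated at 0.07, -0.22 and 0.36 for WD and chow at 22 weeks, at -0.02, 0.16 and 0.34 for chow at 6 and 22 weeks, and at 0.34, 0.32 and 0.13 for WD at 6 and 22 weeks. All 3 were over 0.1 for WD at both durations only, where each 6-week library correlated best with its own number. The deviations of 3 libraries from their own mean depend on each other, so these values cannot decide whether the numbers were paired. Replicate 1 was the library nearly without Y-linked transcripts in each of the 4 WT groups. The numbers thus shared that trait across diets and durations. Of 200 named results, 31 lost and 6 gained a call with the brown fat term, and 38 lost one in the fit of the compared groups. Depth limits low genes most in WD replicate 1, where 222 genes were at 0. With 3 libraries a group, an exact permutation test of a single gene cannot go below 0.1.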
